A study of Mus musculus with 12 samples.

Results

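The genes examined here encode 9 surface or secreted signals by which a leukemia cell can meet T cells and phagocytes, and they were taken by name from the 55401 genes of the deposited expression table. Cd274 (PD-L1), Lgals9 (galectin-9) and Vsir (VISTA) are checkpoint ligands, Cd80 and Cd86 are costimulatory ligands, Cd47, Cd24a and Sirpa belong to signals that restrain phagocytosis, and Calr (calreticulin) promotes it when exposed on the surface. All 9 were found, and the question was whether their mRNA in the same leukemia differed between hosts with different lymphocytes.

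The leukemia was made by retroviral transfer of MLL-AF9, a fusion oncogene of human acute myeloid leukemia, together with GFP into mouse bone marrow progenitors, and the cells had been passed more than 10 times through recipient mice. They were injected into non-irradiated C57BL/6 (WT) mice, Rag2-/- mice, which lack mature T and B cells and keep natural killer (NK) cells, and NSG mice, which lack T, B and NK cells. The Rag2-/- mice were of the C57BL/6 background, whereas NSG is a separate strain. In comparisons with NSG, strain and lymphocytes therefore cannot be told apart. Hosts were females of 8 to 12 weeks, and GFP+ cells were sorted from the bone marrow of moribund animals, with RNA from 3000000 cells per library and 4 libraries per host. The same MLL-AF9 GFP cells entered all 3 hosts, so the deletions are in the hosts and not in the sorted cells. Rag2 mRNA, at 0 to 1.22 TPM (a length-corrected share of each library's transcripts) over the 12 libraries, therefore cannot check the host labels. The line is a single retroviral leukemia maintained by transplantation, GFP marks any cell that carries the vector, and the labels number the libraries as biological replicates without saying how many mice each came from, so p-values measure the spread between these libraries. All values are of mRNA and do not measure protein on the surface.

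PD-L1 binds PD-1 on T cells and restrains them, galectin-9 binds TIM-3 among other receptors, and VISTA restrains T cells and is abundant on myeloid cells. CD80 and CD86 bind CD28, which activates T cells, and CTLA-4, which competes with it. CD47 on a target cell binds SIRPα on a macrophage and signals it not to engulf, CD24 does the same through Siglec-10 (Siglec-G in mice), and calreticulin, an endoplasmic reticulum (ER) chaperone, acts as an eat-me signal through LRP1. SIRPα is a receptor of the myeloid lineage and can therefore also be carried by a myeloid leukemia cell itself.

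Sequencing depth, recovered from the TPM values and exon lengths, was 16010000 to 42810000 reads per library, with medians of 16920000 in WT, 28400000 in Rag2-/- and 20080000 in NSG libraries. For a 1 kb transcript, 3 reads were worth 0.25 to 0.65 TPM. Libraries of one host correlated at r = 0.959 to 0.981. All 14 markers of myeloid leukemia cells had a mean of at least 1 TPM in each host (Cd33 was called higher and Mpo lower in Rag2-/- than in WT), while the T cell genes Cd3e and Trac and the B cell gene Ms4a1 were at 0 in all 12 libraries. Other lymphocyte markers were above 0. The 12 T and NK cell markers summed to 5.57 to 8.20 TPM in WT, 4.23 to 10.1 TPM in Rag2-/- and 2.40 to 8.56 TPM in NSG libraries. Of these, Ncr1 of NK cells was at 0.108 to 0.531 TPM in Rag2-/- libraries and at 0 in the other 8, and Gzma was at 0.624 to 2.39 TPM in Rag2-/- libraries, at 0 in WT and above 0 in 1 NSG library. Nkg7, the most abundant of the 12, went the other way against WT, at 1.79 to 5.19 TPM in Rag2-/- and 5.205 to 6.71 TPM in WT libraries. In NSG libraries Nkg7 was at 1.16 to 7.43 TPM. It was the only one of the 12 tested (log2 fold change -0.72 against WT and -0.39 against NSG) and was not called. The 8 B and plasma cell markers summed to 181 to 233 TPM in WT, 140 to 210.5 TPM in Rag2-/- and 126 to 221 TPM in NSG libraries, most of it Ighm (122 to 215 TPM over all libraries), and Igkc was at 0.745 to 18.0 TPM in WT, 0 to 0.295 TPM in Rag2-/- and 0 to 0.676 TPM in NSG libraries. The part of lymphocytes in the results below was not tested. Of 12 neutrophil granule and surface markers, 11 were called higher in Rag2-/- than in WT libraries (as were 1.14% of all genes) and 8 than in NSG libraries (0.193% of all genes), and none was at 0 in any host. Against WT the count was 8 to 11 with one library left out. Against NSG it was 4 without Rag2-/- replicate 1, 2 or 3 or NSG replicate 2, 5 without NSG replicate 1 or 4, and 11 without Rag2-/- replicate 4. The sum of the 12 was 832 to 2345 TPM in Rag2-/- libraries, 295 to 480 TPM in WT and 429 to 473 TPM in NSG libraries, with Rag2-/- replicate 4 at the low end. In sorted bulk cells more cells of a type and more RNA per cell cannot be told apart.

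The levels of the 9 genes spanned a wide range, and TPM, which corrects for transcript length, allows them to be ranked. Averaged over the 12 libraries, Calr was at 2508 TPM (rank 34 of 55401 genes), Cd47 at 673 TPM (rank 188), Lgals9 at 513 TPM (rank 245), Vsir at 231 TPM (rank 689), Sirpa at 157 TPM (rank 1162), Cd24a at 93.3 TPM (rank 2134), Cd274 at 28.5 TPM (rank 6154), Cd80 at 2.62 TPM (rank 12577) and Cd86 at 0.391 TPM (rank 17687). The ranges over libraries of Calr and Cd47 did not overlap, nor did those of Lgals9 and Vsir, of Cd24a and Cd274, of Cd274 and Cd80 or of Cd80 and Cd86. The neighbours Cd47 and Lgals9, Vsir and Sirpa, and Sirpa and Cd24a overlapped in their ranges.

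**Figure D1:**
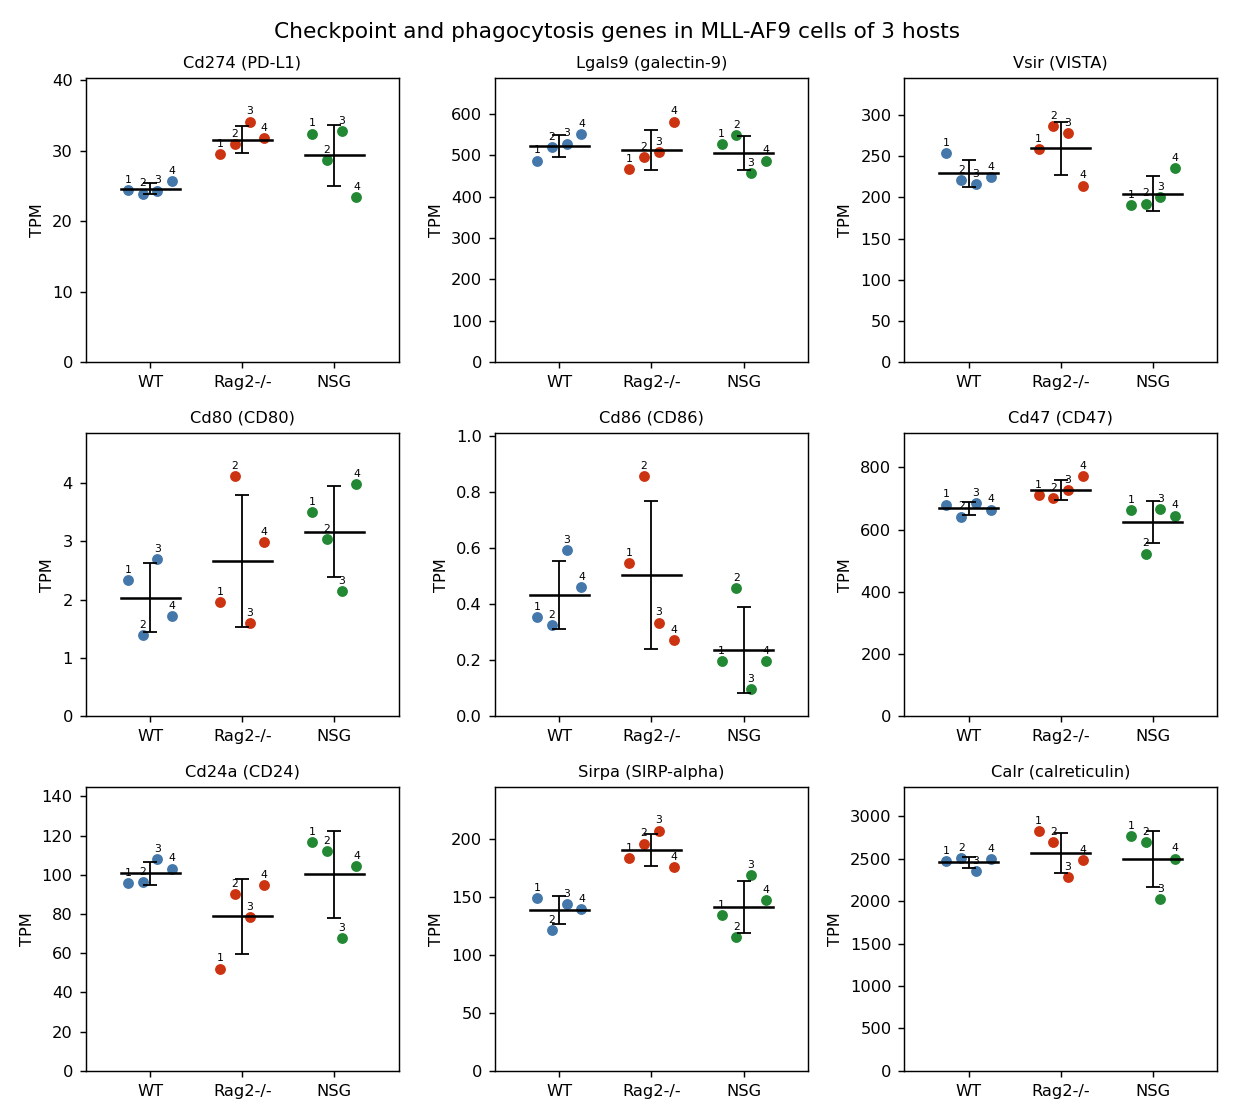
TPM (vertical axis, from 0, one scale per gene) of the 9 genes in each library of the 3 hosts (horizontal axis), with points numbered by replicate, the bar at the mean and whiskers of 1 SD (n = 4). The Rag2-/- libraries lie above all WT libraries for Cd274, Cd47 and Sirpa and below them for Cd24a, while Lgals9 and Calr overlap in all hosts.

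No member met the criterion used for calls, an adjusted p under 0.05 and a log2 fold change beyond 0.5 in limma, fitted to log2(TPM + 1), in any of the 3 comparisons. Of the 8 members tested (Cd86 was under the filter of 1 TPM), 0 were called in Rag2-/- versus WT, where 1.47% of 15026 genes were called (1.14% higher and 0.326% lower), 0 in Rag2-/- versus NSG (0.213% of genes) and 0 in NSG versus WT (0% of genes). With an unadjusted p under 0.05 there were 2, 3 and 1 members, against 20.9%, 12.6% and 9.16% of genes. Each pair of comparisons shares the libraries of 1 host, so the values set side by side below are not independent of each other. The median log2 fold change of the 8 members was 0.15 against WT, 0.08 against NSG and -0.01 for NSG versus WT, beside 0.02, 0.01 and 0.005 over all genes. The 95% intervals of all 8 members lay within 1 log2 unit of no difference in each comparison, and those of 4, 4 and 7 members within 0.5.

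**Figure D2:**
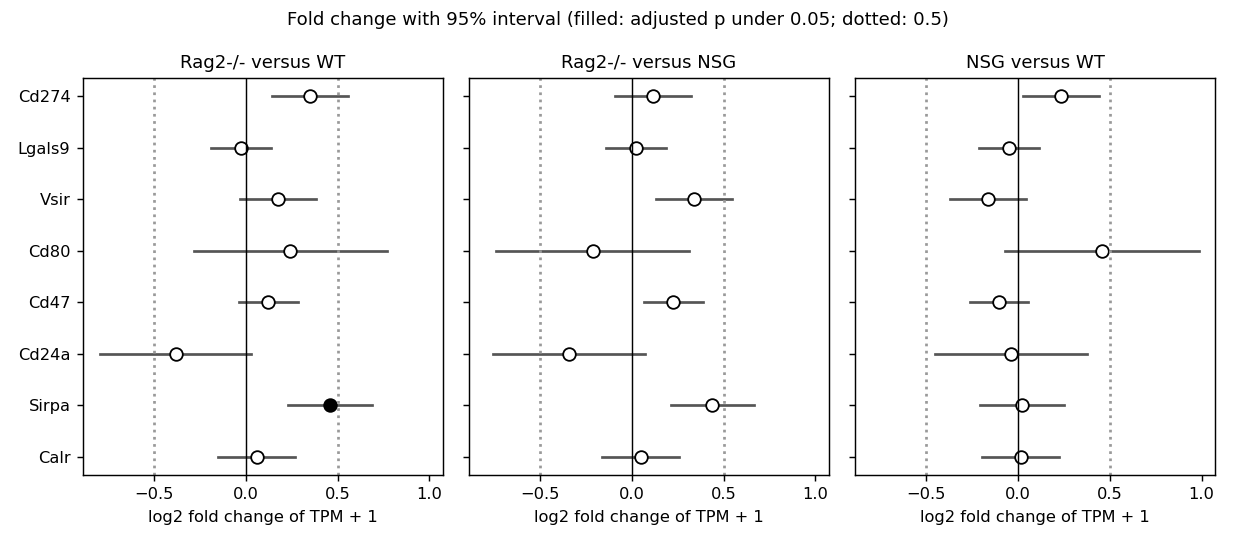
Log2 fold change of TPM + 1 (horizontal axis) with its 95% interval in limma for the 8 tested members in the 3 comparisons (4 libraries per host). Only Sirpa in Rag2-/- versus WT is filled (adjusted p = 0.0399), at 0.46, inside the dotted limit of 0.5, and the widest intervals are those of Cd80 and Cd24a.

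Among the checkpoint ligands Cd274 (ENSMUSG00000016496, GRCm38 chr19:29367455-29388095, plus strand) was the one with the clearest separation from WT. PD-L1 mRNA was at 24.5, 23.9, 24.3 and 25.7 TPM in the WT libraries, at 29.5, 30.9, 34.1 and 31.8 TPM in the Rag2-/- libraries and at 32.4, 28.7, 32.8 and 23.5 TPM in the NSG libraries. All Rag2-/- libraries lay above all WT libraries, whereas NSG replicates 1 to 3 lay above every WT library and replicate 4 lay below every WT library. The log2 fold change was 0.35 (SE 0.095) against WT, with an adjusted p = 0.0679 in limma, and 0.11 (95% interval -0.09 to 0.32, adjusted p = 0.681) against NSG. With one library left out the adjusted p against WT went from 0.0290 (without NSG replicate 4) to 0.20 (without Rag2-/- replicate 3) and no call resulted, since the fold change stayed between 0.31 and 0.38. For NSG versus WT it was 0.23 (95% interval 0.03 to 0.44, adjusted p = 0.520). The other PD-1 ligand, Pdcd1lg2 (PD-L2), was at 0 to 0.679 TPM in all libraries.

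Interferon-γ signaling, which induces PD-L1, and the proteins that stabilize PD-L1 were described by 22 regulators, all of them tested. None was called in any comparison, and their median log2 fold change against WT was 0.09. Cmtm6, which keeps PD-L1 at the cell surface, was at 149 to 179 TPM over all libraries, and its log2 fold change against WT was 0.09 (adjusted p = 0.424 in limma). The IFN-γ receptor chain Ifngr1, the most abundant of the list, was at 744 ± 25.2 TPM (SD, n = 4) in WT, 660 ± 80.5 TPM in Rag2-/- and 675 ± 45.3 TPM in NSG libraries, and differed by -0.18 (log2) from WT (adjusted p = 0.217). Irf1, the interferon-induced transcription factor of the PD-L1 promoter, was at 51.0 ± 3.75 TPM in Rag2-/- and 55.6 ± 4.44 TPM in WT libraries (-0.12, adjusted p = 0.392). Cdk4, a cell cycle kinase reported to keep PD-L1 low through the adaptor Spop, was the member of this list with the largest difference, at -0.39 against WT (adjusted p = 0.0195) and -0.27 against NSG (adjusted p = 0.142), both under the limit of 0.5. Cmtm6 and Irf1 were chosen after their values were seen.

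Lgals9 (ENSMUSG00000001123, GRCm38 chr11:78962974-78984946, minus strand) was at similar levels in the libraries of all 3 hosts and was not called in any comparison. Galectin-9 mRNA was at 487, 521, 528 and 551 TPM in WT, 466, 496, 508 and 581 TPM in Rag2-/- and 527, 548, 456 and 487 TPM in NSG libraries. The 3 ranges overlapped fully, and the intervals were narrow, at -0.19 to 0.14 around -0.03 against WT and -0.14 to 0.19 around 0.02 against NSG. Among other galectins, Lgals1 was the most abundant at 1672 ± 131 TPM in WT, 1416 ± 126 TPM in Rag2-/- and 1568 ± 174 TPM in NSG libraries, and was not called. Lgals3 (galectin-3), which binds glycans of LAG-3 and other receptors, was the single galectin called, of 5 tested. The call was in Rag2-/- versus WT, where 1.14% of all genes were called higher. It was at 54.3, 82.1, 85.4 and 33.4 TPM in Rag2-/- libraries, 15.9 to 22.0 TPM in WT libraries and 15.3, 18.9, 41.1 and 23.6 TPM in NSG libraries. The Rag2-/- libraries lay above all WT libraries and overlapped with NSG. The log2 fold change of Lgals3 was 1.62 (SE 0.31, adjusted p = 0.0230) against WT, a call lost on leaving out Rag2-/- replicate 2 or 3 or WT replicate 2 or 4 (adjusted p up to 0.0854), and 1.34 against NSG (adjusted p = 0.102).

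Vsir (ENSMUSG00000020101, GRCm38 chr10:60346851-60372684, plus strand) was at 254, 221, 216 and 225 TPM in WT, 259, 287, 278 and 214 TPM in Rag2-/- and 190, 193, 200 and 235 TPM in NSG libraries. Rag2-/- replicates 1 to 3 were above every other library and replicate 4 was below every WT library, so the hosts overlapped. For VISTA mRNA the log2 fold change was 0.34 (SE 0.096) against NSG, which did not pass (adjusted p = 0.154 in limma), and 0.17 against WT (adjusted p = 0.324). With one library left out, the adjusted p against NSG in limma was under 0.05 in 1 of 12 fits and went up to 0.404 (without Rag2-/- replicate 3). That 1 fit was without Rag2-/- replicate 4, the library with the low neutrophil marker sum. There the difference from NSG was 0.43 with an adjusted p = 0.0391, still under the limit of 0.5.

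The costimulatory ligands were near the lower end of what these libraries can measure. Cd80 (ENSMUSG00000075122, GRCm38 chr16:38455561-38496335, plus strand) was at 2.33, 1.39, 2.69 and 1.71 TPM in WT, 1.95, 4.11, 1.60 and 2.99 TPM in Rag2-/- and 3.50, 3.03, 2.15 and 3.98 TPM in NSG libraries, from 26 to 143 reads each. The hosts overlapped, and the intervals were the widest of the members, at -0.28 to 0.77 for Rag2-/- versus WT, -0.74 to 0.31 for Rag2-/- versus NSG and -0.07 to 0.98 for NSG versus WT. Each interval includes a log2 difference of 0.5, so a difference of that size was not excluded for Cd80. Within a host its coefficient of variation was 24.7% to 42.5%. Cd86 (ENSMUSG00000022901, GRCm38 chr16:36603869-36666081, minus strand) rested on 2 to 20 reads per library and was at 0.325 to 0.594 TPM in WT, 0.273 to 0.858 TPM in Rag2-/- and 0.0965 to 0.458 TPM in NSG libraries. Exact two-sided permutation tests of its mean TPM, for which 0.0286 is the smallest possible p with 4 against 4, gave p = 0.686 for Rag2-/- versus WT, p = 0.143 for Rag2-/- versus NSG and p = 0.0857 for NSG versus WT (0.686, 0.214 and 0.214 adjusted over the 3). Relative to PD-L1, Cd80 was at 8.27 ± 2.45 per 100 TPM of Cd274 in WT, 8.50 ± 3.74 in Rag2-/- and 11.2 ± 4.29 in NSG libraries (SD, n = 4), with overlap between the hosts.

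Of 24 further checkpoint and costimulatory ligands, 10 were tested. Of these 1, Lgals3, was called, in Rag2-/- versus WT, where 1.14% of all genes were called higher, and 0 in the other comparisons. The most abundant was Cd48, the ligand of the NK and T cell receptor CD244, at 202 ± 15.7 TPM in WT, 163 ± 33.6 TPM in Rag2-/- and 167 ± 48.8 TPM in NSG libraries, with overlap between the hosts. Hmgb1, a nuclear protein that binds TIM-3 when released, was lower in every Rag2-/- library (101 to 128 TPM) than in every WT library (138 to 157 TPM), a log2 fold change of -0.42 (adjusted p = 0.0394 in limma) that did not reach 0.5. With one library left out, this adjusted p was under 0.05 in 4 of 12 fits and went up to 0.132 (without Rag2-/- replicate 3). Of the 19 receptors listed for these ligands and for the phagocyte signals, 9 stayed under 1 TPM in all 12 libraries and 9 were above 1 TPM in all of them, among the latter the lymphocyte receptors Btla (25.4 to 37.4 TPM) and Tnfrsf4 (OX40, 4.33 to 9.57 TPM), neither of them called. Pdcd1 (PD-1) was at 0 in all 12 libraries, Ctla4 was above 0 in 1 library, at 0.110 TPM, and Cd28 and Havcr2 (TIM-3) stayed under 0.5 TPM throughout.

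Sirpa (ENSMUSG00000037902, GRCm38 chr2:129592835-129632228, plus strand) had the largest log2 fold change of the members against WT. It was at 149, 121, 144 and 139 TPM in WT, 183, 196, 207 and 176 TPM in Rag2-/- and 134, 115, 169 and 147 TPM in NSG libraries. All 4 Rag2-/- libraries lay above all 8 others, and WT and NSG libraries overlapped. Of the members 3 lay wholly above WT in Rag2-/- libraries and 1 wholly below, where 10.2% and 6.72% of all genes did so (16.9% in either direction). Against NSG 2 lay wholly above and 0 below (4.34% and 2.25% of genes, 6.59% together). Between NSG and WT libraries 0 members were separated, as were 2.21% of genes upward and 2.38% downward (4.59% together). The log2 fold change was 0.46 (SE 0.10, 95% interval 0.23 to 0.69, adjusted p = 0.0399 in limma) against WT, so that Sirpa passed the adjusted p, as did 2.8% of genes, and missed the limit on size. Against NSG it was 0.44 (SE 0.10, adjusted p = 0.104). For NSG versus WT it was 0.02, with a 95% interval of -0.21 to 0.25.

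The result for Sirpa was sensitive to single libraries. Against WT the adjusted p was under 0.05 in 5 of the 12 fits with one library left out, from 0.0172 (without NSG replicate 3) to 0.133 (without Rag2-/- replicate 3), while the fold change stayed between 0.40 and 0.50. These 5 were the fits without an NSG library, which leave the fold change against WT at 0.46, and the fit without Rag2-/- replicate 4. Without any WT library or another Rag2-/- library the adjusted p in limma was 0.0586 to 0.133. Against NSG Sirpa met both criteria only without NSG replicate 3 (0.53, adjusted p = 0.0324), the NSG library with the highest Sirpa. The neutrophil markers moved with the same comparison, and Sirpa is also a gene of neutrophils and macrophages. Rag2-/- replicate 4, whose neutrophil sum was 832 TPM against 2227 to 2345 TPM in the others, had the lowest Sirpa of the Rag2-/- libraries, 176 TPM, next to NSG replicate 3 at 169 TPM. Without that library the log2 fold change against WT was 0.50, just under the limit (adjusted p = 0.0457). Of 12 macrophage markers 9 were tested. Axl passed the filter only through Rag2-/- libraries (2.34 to 5.04 TPM, against 0.712 to 1.58 TPM in WT and 0.421 to 0.715 TPM in NSG) and is not counted. Of the other 8, 1 (C1qc) was called against WT, in 6 of 12 fits with one library left out (adjusted p up to 0.0911, without Rag2-/- replicate 3), and 0 against NSG. Over all genes 1.14% were called higher against WT and 0.193% against NSG. The log2 fold changes of the 8 markers were above 0 for 7 genes against WT (54.5% of all genes) and for all 8 against NSG (53.4% of all genes), with medians of 0.47 and 0.75. The sum of the 12 markers was 117 to 136 TPM in WT, 142 to 158 TPM in Rag2-/- and 89.5 to 144 TPM in NSG libraries, with Marco at 0 in WT and NSG. The part of either cell type in the level of Sirpa was not tested.

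SIRPα signals through the phosphatases SHP-1 and SHP-2 and assembles with the adaptors SKAP2 and FYB. In a list of 12 genes of this pathway and of SIRP relatives, 9 were tested, of which Sirpb1c passed the filter only through the Rag2-/- libraries. Of the other 8, 0 were called against WT and 1 against NSG, where 1.14% and 0.193% of all genes were called higher. Their median log2 fold changes were 0.15 and 0.10. Fyb was at 33.9, 41.2, 43.2 and 36.9 TPM in Rag2-/- libraries against 24.8 to 29.2 TPM in WT and 23.9 to 29.4 TPM in NSG libraries. Every Rag2-/- library was above all others, as for Sirpa, and the log2 fold change was 0.53 against NSG (SE 0.089, adjusted p = 0.0457 in limma, called) and 0.50 against WT (adjusted p = 0.0170, just under the limit). The call against NSG remained in 3 of 12 fits with one library left out, and the adjusted p reached 0.160 without Rag2-/- replicate 3. The phosphatases Ptpn6 (SHP-1, 399 ± 19.8 TPM in WT, 427 ± 11.0 TPM in Rag2-/- and 397 ± 42.7 TPM in NSG) and the adaptor Grb2 (323 ± 6.59, 304 ± 5.88 and 306 ± 16.4 TPM) were the most abundant and were not called.

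Sirpb1c, an activating relative of Sirpa without its inhibitory tail, was at 2.37, 2.90, 2.16 and 1.31 TPM in Rag2-/- libraries, 0.176 to 0.517 TPM in WT and 0.342 to 1.27 TPM in NSG libraries. Its mean over the 8 WT and NSG libraries was 0.545 TPM, so it was in the test only because it was high in Rag2-/- libraries, and these values are given as a description. Sirpb1a, Sirpb1b and Sirpb1c are near-identical to each other and close to Sirpa, so reads may have been assigned among them with error. They reached at most 2.90 TPM, where Sirpa was at 115 to 207 TPM.

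Further receptors that restrain phagocytes were compared with Sirpa. Pirb, an inhibitory receptor for MHC class I, was at 50.3, 75.0, 88.8 and 43.5 TPM in Rag2-/- libraries against 21.9 to 26.7 TPM in WT and 20.2 to 33.9 TPM in NSG libraries. Against WT it was the one receptor called of 9 tested in a list of 19, where 1.14% of all genes were called higher. Against NSG 0 of the 9 were called. The log2 fold change of Pirb was 1.29 against WT (SE 0.21, adjusted p = 0.0128 in limma) and 1.10 against NSG (adjusted p = 0.0543). The call against WT was lost without WT replicate 2 (adjusted p = 0.0528) or Rag2-/- replicate 2 (0.0534). Lilrb4a, another inhibitory receptor of myeloid cells and chosen after its values were seen, was at 20.8, 32.2, 30.5 and 22.3 TPM in Rag2-/- and 10.2 to 17.6 TPM in WT libraries (0.87, adjusted p = 0.0506). Selplg (PSGL-1), a binding partner of VISTA, was the most abundant of the list and was higher in Rag2-/- (106 ± 8.16 TPM) than in WT libraries (86.3 ± 4.94 TPM) by 0.29 (adjusted p = 0.0444), under the limit of 0.5. Among the Rag2-/- libraries, Lgals3, Pirb, Sirpb1c, Sirpa and Anxa1 (described below) were lowest in replicate 4, which had the low neutrophil marker sum. Fyb and Lilrb4a were lowest in replicate 1, and Cd47 was highest in replicate 4. Replicate 4 was also the deepest library. Of the myeloid leukemia markers, Mpo, Elane, Kit, Csf1r and Cebpa were highest of the Rag2-/- libraries there, and Spi1, Hoxa9 and Hoxa10 were lowest. The part of neutrophils or of depth in these values was not tested.

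**Figure D3:**
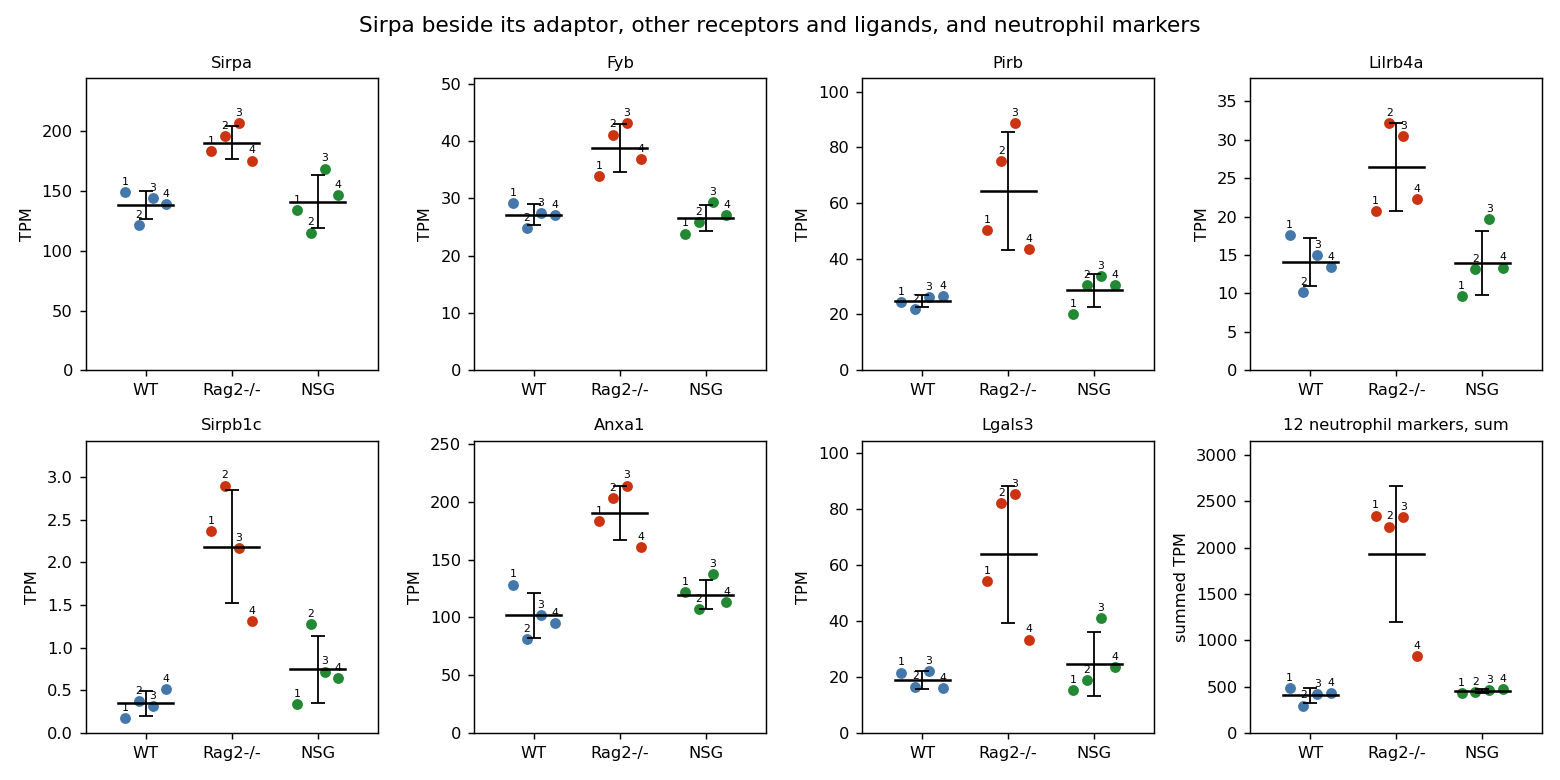
TPM (vertical axes, from 0) of Sirpa, its adaptor Fyb, the receptors Pirb and Lilrb4a, Sirpb1c, Anxa1 and Lgals3, and the summed TPM of 12 neutrophil markers, in each library of the 3 hosts (points numbered by replicate, bar at the mean, whiskers 1 SD, n = 4). Rag2-/- replicate 4 has a neutrophil sum of 832 TPM against 2227 to 2345 TPM in the other Rag2-/- libraries, and has the lowest Sirpa of the Rag2-/- libraries, 176 TPM, next to NSG replicate 3 at 169 TPM.

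Cd47 (ENSMUSG00000055447, GRCm38 chr16:49800533-49915010, plus strand), the ligand of SIRPα, was the most abundant of the antiphagocytic signals. It was at 680, 642, 686 and 664 TPM in WT, 710, 702, 726 and 772 TPM in Rag2-/- and 664, 523, 667 and 645 TPM in NSG libraries. Every Rag2-/- library was above every WT and NSG library, and NSG replicate 2 lay below all others. The differences were small, at 0.12 against WT (95% interval -0.04 to 0.28, adjusted p = 0.362 in limma) and 0.23 against NSG (0.07 to 0.38, adjusted p = 0.204). Sirpa per 100 TPM of Cd47 was 20.7 ± 1.27 in WT, 26.2 ± 2.60 in Rag2-/- and 22.6 ± 2.11 in NSG libraries (SD, n = 4). For this ratio the Rag2-/- libraries (22.75 to 28.52) lay above WT (18.91 to 21.91) and overlapped with NSG (20.22 to 25.32). Qpctl, the enzyme that modifies the CD47 end bound by SIRPα, was at 18.5 to 25.7 TPM over all libraries (0.16 against WT, adjusted p = 0.312; chosen after its values were seen).

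Cd24a (ENSMUSG00000047139, GRCm38 chr10:43578284-43584265, plus strand) was the member with the lowest fold change. It was at 95.9, 96.2, 108 and 103 TPM in WT, 52.1, 90.3, 78.3 and 94.9 TPM in Rag2-/- and 117, 112, 67.6 and 104 TPM in NSG libraries. The highest Rag2-/- library, at 94.9 TPM, lay next to the lowest WT library, at 95.9 TPM, and both Rag2-/- and NSG libraries varied widely, by a coefficient of variation of 24.3% and 22.3% against 5.85% in WT. The log2 fold change of -0.38 (SE 0.19) against WT had an adjusted p = 0.275 in limma, and without Rag2-/- replicate 1 it was -0.20. Its receptor gene Siglecg was at 2.65 to 3.69 TPM in Rag2-/- and 4.04 to 7.57 TPM in WT libraries (-0.79, adjusted p = 0.201; chosen after its values were seen).

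Other signals by which a dying or living cell is recognized by phagocytes were 18 in number, of which 15 were tested. Of these 1, Anxa1, was called, in Rag2-/- versus WT, where 1.14% of all genes were called higher, and 0 in the other comparisons. Anxa1 (annexin A1, which is exposed with phosphatidylserine on dying cells) was at 184, 204, 214 and 161 TPM in Rag2-/- libraries against 81.1 to 129 TPM in WT and 108 to 137 TPM in NSG libraries. Against WT the log2 fold change of Anxa1 was 0.91 (SE 0.13, adjusted p = 0.00680), a call that remained in all 12 fits with one library left out, and 0.66 against NSG (adjusted p = 0.0609). The most abundant of the list, B2m, the light chain of MHC class I, through which LILRB1 restrains human macrophages, was at 4067 ± 507 TPM in WT, 3638 ± 939 TPM in Rag2-/- and 5005 ± 1363 TPM in NSG libraries, with overlap and no call. Adam10, a protease that sheds surface ligands, was at 427 ± 4.84, 406 ± 17.2 and 376 ± 17.5 TPM in the same order, also without a call.

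Calr (ENSMUSG00000003814, GRCm38 chr8:84841850-84846934, minus strand) was the most abundant of the 9 genes and was not called in any comparison. It was at 2472, 2507, 2356 and 2491 TPM in WT, 2822, 2691, 2279 and 2484 TPM in Rag2-/- and 2765, 2696, 2026 and 2501 TPM in NSG libraries. The libraries of the 3 hosts overlapped, and the 95% intervals were -0.15 to 0.27 against WT, -0.16 to 0.26 against NSG and -0.20 to 0.22 for NSG versus WT. The ratio of the antiphagocytic to the prophagocytic signal, Cd47 per 100 TPM of Calr, was 27.2 ± 1.48 in WT, 28.6 ± 3.40 in Rag2-/- and 25.5 ± 5.62 in NSG libraries (SD, n = 4), also with overlap.

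Calreticulin is induced with other chaperones in ER stress through the ER stress response element (ERSE), and galectin-9 by interferons, so the 250 bases before the RefSeq start (GRCm38.p6) were searched on both strands for ERSE (CCAAT and CCACG with 9 bases between them), for the related ERSE-II (ATTGG and CCACG with 1 base between them) and for the core of the interferon-stimulated response element (ISRE, GAAA and GAAA with 2 bases between them). These letters occur in 0.13%, 0.037% and 3.46% of 27025 genes with a promoter entry. Of the 6 members with an entry, Calr held an ERSE 162 to 144 bases before its start and Lgals9 an ISRE core 55 to 46 bases before its start, both on the strand opposite to the gene, and Cd274 held none of the 3. Cd24a, Cd86 and Sirpa had no entry. The promoters of Calr, of Hspa5 (BiP, the main ER stress chaperone, for comparison), of Lgals9 and of Cd274 are shown 5′ to 3′ on the strand of the gene, with the matches in capitals. They are at chr8:84846932-84847181 (minus strand), chr2:34771840-34772089 (plus strand), chr11:78984925-78985174 (minus strand) and chr19:29367188-29367437 (plus strand).
Calr: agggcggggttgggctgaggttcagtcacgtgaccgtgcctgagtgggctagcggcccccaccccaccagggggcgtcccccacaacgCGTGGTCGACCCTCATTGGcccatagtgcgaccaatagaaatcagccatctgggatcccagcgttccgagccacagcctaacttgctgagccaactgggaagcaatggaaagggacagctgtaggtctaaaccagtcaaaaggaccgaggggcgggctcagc
Hspa5: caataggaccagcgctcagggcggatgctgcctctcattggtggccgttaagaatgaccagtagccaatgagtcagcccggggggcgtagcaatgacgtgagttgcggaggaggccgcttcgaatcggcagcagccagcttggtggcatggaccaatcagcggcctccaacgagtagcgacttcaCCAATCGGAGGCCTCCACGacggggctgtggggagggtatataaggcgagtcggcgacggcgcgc
Lgals9: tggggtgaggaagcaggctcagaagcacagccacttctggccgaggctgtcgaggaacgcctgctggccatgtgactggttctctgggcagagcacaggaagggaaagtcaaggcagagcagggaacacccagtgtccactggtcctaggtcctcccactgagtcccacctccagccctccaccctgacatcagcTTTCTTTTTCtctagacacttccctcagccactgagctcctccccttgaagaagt
Cd274: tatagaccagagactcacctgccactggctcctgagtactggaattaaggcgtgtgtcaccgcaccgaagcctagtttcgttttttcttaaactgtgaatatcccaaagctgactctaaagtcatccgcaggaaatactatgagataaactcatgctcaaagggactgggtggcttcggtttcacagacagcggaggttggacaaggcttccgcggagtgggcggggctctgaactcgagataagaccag

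Among 20 ER chaperones and stress genes, 17 had a promoter entry, of which 6 (Canx, Creld2, Dnajc3, Hsp90b1, Hspa5 and Pdia6) held an ERSE and Herpud1 held an ERSE-II. None of the 20 was called in any comparison, and 16 had a log2 fold change above 0 against WT and 19 against NSG, with medians of 0.15 and 0.17, where 54.5% and 53.4% of all genes were above 0. For NSG versus WT 9 of the 20 were above 0 (51.5% of all genes), with a median of -0.01. Hspa5 was at 1230, 1167, 872 and 786 TPM in Rag2-/-, 889, 777, 694 and 699 TPM in WT and 1146, 903, 551 and 787 TPM in NSG libraries, which overlapped (0.39 against WT, adjusted p = 0.298 in limma). Manf, an ER stress protein that is secreted, had the largest log2 fold change of the list, 0.48 against WT (adjusted p = 0.111), and P4hb, a disulfide isomerase and the most abundant, was at -0.05 (adjusted p = 0.706). With the replicate number as a block in the limma fit, the adjusted p against WT was 0.0315 for Manf and 0.119 for Hspa5. The fold changes were the same, under the limit of 0.5. In Rag2-/- and in NSG, replicate 1 was highest for both Calr and Hspa5. In WT, Calr was highest in replicate 2 and Hspa5 in replicate 1. Over the 12 libraries the log2 TPM of Calr was most alike to that of Ppm1e (Pearson r = 0.93) and Pdia4, an ER disulfide isomerase (r = 0.92).

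**Figure D4:**
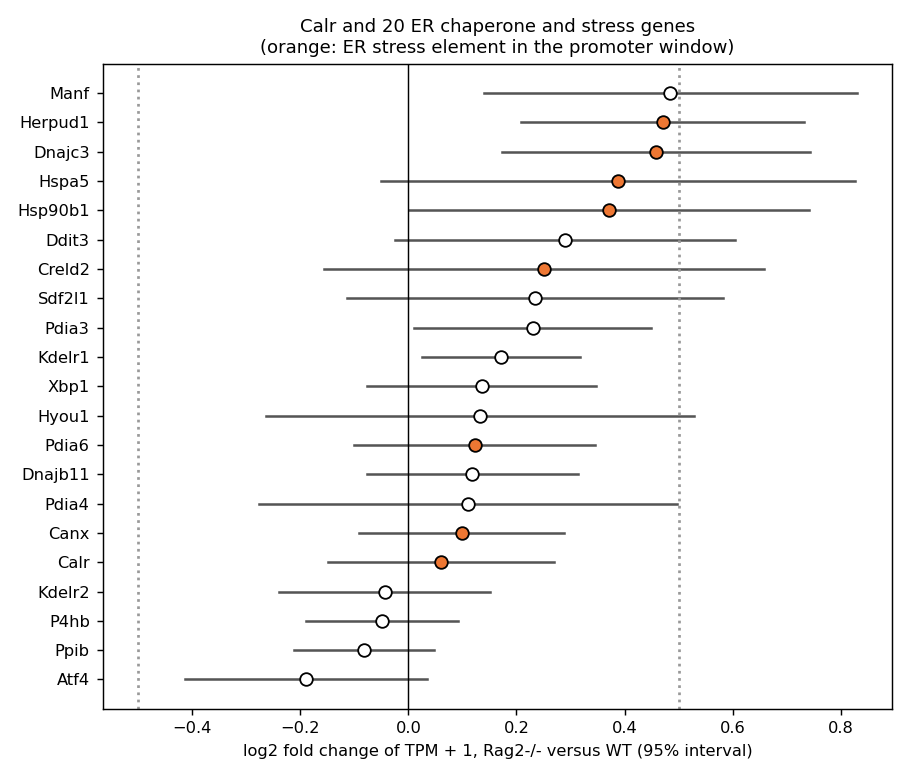
Log2 fold change of TPM + 1 in Rag2-/- versus WT (horizontal axis) with 95% interval in limma for Calr and 20 ER chaperone and stress genes (4 libraries per host), with genes that hold ERSE or ERSE-II in the promoter window in orange. Calr, at 0.06, lies in the lower part of the list, and no gene reaches both an adjusted p under 0.05 and the dotted limit of 0.5.

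The other members were also compared with all 15026 genes for likeness over the 12 libraries, as a description of pairs that share library and depth. Sirpa was most alike to Man2a1, a Golgi mannosidase (Pearson r = 0.99), Tgfbi, a secreted matrix protein of monocytes (0.96), and Emilin2 (0.96). Lgals9 was most alike to Ly6e (0.95), Ifi206 (0.94) and Phf11d (0.91), of which Ly6e and Ifi206 are known as interferon-induced genes. Vsir was most alike to Csf2ra, the GM-CSF receptor chain (0.96), Cd47 to Crebbp (0.96), Cd24a to Clec12a, an inhibitory receptor of myeloid cells (0.93), Cd274 to Zbtb38 (0.95), Cd80 to Ccdc28a (0.86) and Cd86 to Ankrd40 (0.85).

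Soluble and enzymatic suppressors of T cells completed the comparison. Of 12 such genes 7 were tested, Ido1 and Ptgs2 among them only through 1 host, and none was called in any comparison. Tgfb1 was the most abundant, at 375 ± 4.24 TPM in WT, 341 ± 26.3 TPM in Rag2-/- and 349 ± 16.1 TPM in NSG libraries (-0.14 against WT, adjusted p = 0.181 in limma). Ptges, a synthase of prostaglandin E2, had the largest log2 fold change, 0.70 against WT (adjusted p = 0.127), at 3.81 to 9.59 TPM in Rag2-/- and 3.07 to 4.28 TPM in WT libraries. Entpd1 (CD39) was at 70.3 ± 4.21 TPM in Rag2-/- and 61.1 ± 3.04 TPM in WT libraries (0.20, adjusted p = 0.212).

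**Figure D5:**
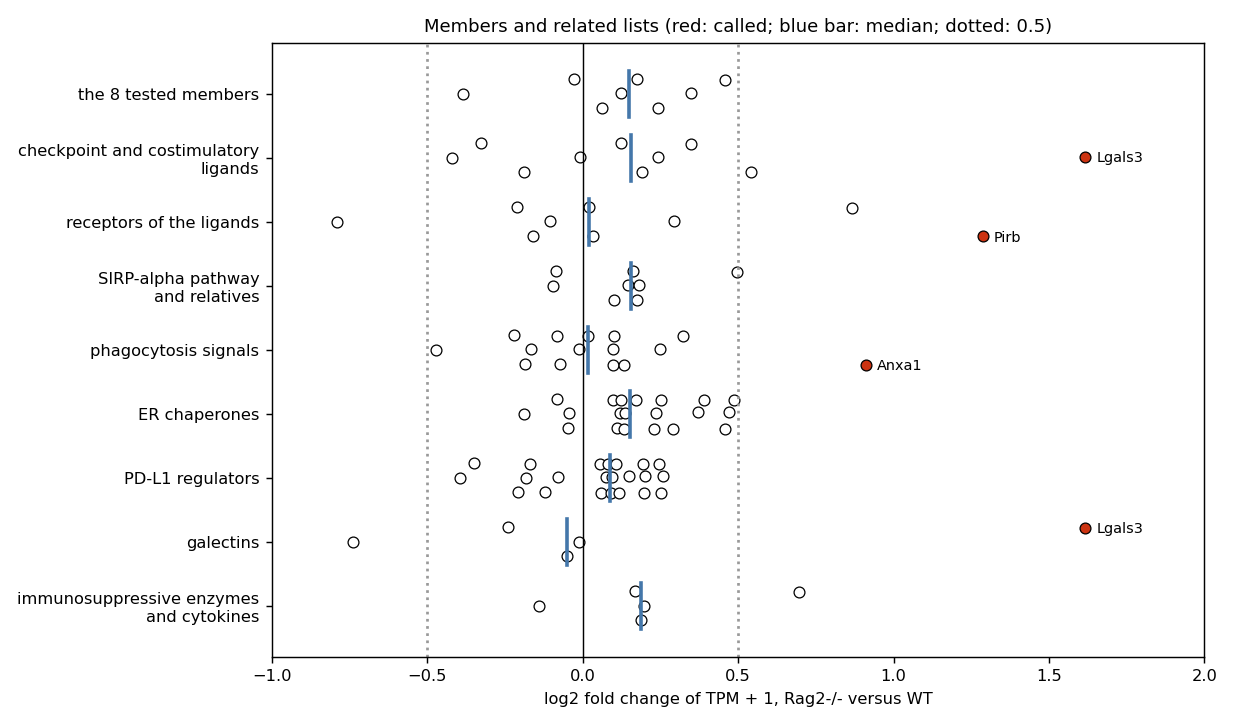
Log2 fold change of TPM + 1 in Rag2-/- versus WT (horizontal axis) of the 8 tested members and of the tested genes of 8 related lists (rows, each point a gene, blue bar the median). Left out are Sirpb1c, Ido1 and Ptgs2, which passed the filter only through 1 host. The called genes, in red, are Lgals3, Pirb and Anxa1, all higher in Rag2-/-, and the members lie between -0.38 and 0.46.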

How the data were processed

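RNA was from GFP+ MLL-AF9 cells of bone marrow, 4 libraries per host. The authors aligned paired-end reads to mm10 with HISAT2 on Galaxy and deposited TPM values computed from gene counts, while the counter and annotation are not given in the sources used here. TPM times the GENCODE M21 exon length gave whole reads (within 0.05 reads) for 98.7 to 98.9% of genes under 40 reads, which set the depth. Symbols and GRCm38 coordinates came from GENCODE M21, with a symbol for 55141 of 55401 gene IDs. The 15026 genes whose TPM averaged 1 or more across all 12 libraries entered the test on log2(TPM + 1), a scale that understates changes of low genes, in 1 limma fit over all libraries with a mean-variance trend (limma 3.58.1, R 4.3.3), with Benjamini-Hochberg adjustment over all genes tested. The procedure was tested on simulated data for Rag2-/- versus WT with 200 of 15026 genes changed, and recovered 81% of 2-fold and 90% of 4-fold changes with 7 false calls. The simulated noise was drawn for each gene on its own, without deviations that genes of a library share. No change under 2-fold was simulated, so the recovery of differences as small as those of the members is not given by it. Cd86, under the filter, was tested by exact permutation. Promoters were from RefSeq (GRCm38.p6). Over all tested genes, same-numbered libraries did not deviate together (correlations of -0.0906 to 0.0318), and the main fit did not pair them. This average does not show whether a few genes shared a deviation. Hspa5 was highest in replicate 1 of each host. The members and gene lists were chosen with earlier results of these data known. Named genes are the 9 members and up to 3 genes most alike to each. From each list other than the cell markers they include every called gene and the one with the largest change against WT. The 2 most abundant of such a list are also named, except Cd300a among the receptors. Cell markers did not follow this rule. Further genes, such as Btla, Tnfrsf4, Pdcd1, Ctla4, Cd28, Havcr2 and Pdcd1lg2, were named outside it. Neither these genes nor the cell markers are given as fixed in advance. The same holds for genes marked above as chosen with values known. The alternatives were the pseudocount, 3 other filters, median-ratio and quantile scaling, the variance model, the 8 libraries of a comparison alone, a replicate block, no limit on the fold change, leaving out each library and, added after seeing the data, voom on the recovered reads.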

Additional observations from a re-analysis of the deposited data

Results flagged for a closer look

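In 6 of 144 groups of 4 libraries (27 of them for members), 1 library lay farther from its nearest neighbour, relative to the range of the 4, than the 95% critical value of Dixon's test, where chance gives about 1 group in 20, or 7.2 groups. Cd47 in NSG replicate 2 was the single member flagged, at 523 TPM against 645 to 667 TPM in the other NSG libraries (0.848 of the range). Lgals3bp, a galectin-binding protein, was highest in Rag2-/- replicate 4, at 204 TPM against 79.8 to 98.4 TPM (0.850). The summed receptors of the ligands were lowest in NSG replicate 1, at 236 TPM against 253 to 254 TPM (0.933). The summed neutrophil markers were lowest in Rag2-/- replicate 4, at 832 TPM against 2227 to 2345 TPM (0.922). The summed dendritic cell markers were lowest in WT replicate 2, at 26.3 TPM against 31.7 to 32.4 TPM (0.886). The summed erythroid markers were highest in NSG replicate 1, at 12.1 TPM against 3.05 to 4.12 TPM (0.881).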

How the results depend on the processing

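Of 264 log2 fold changes of members under settings other than leaving out a library, 260 kept their direction and side of the threshold. Without the limit on the fold change Sirpa was called against WT (0.46, adjusted p = 0.0399 in limma), so that 1 member was called. Lgals9 turned to -0.0075 with voom and to -0.0045 with quantile scaling against NSG, and Calr for NSG versus WT to -0.0079 with quantile scaling, all near 0. The counts over all genes moved more. Against WT, 172 higher and 49 lower became 91 and 23 with all genes above 0, 309 and 111 without the limit, and lower became 98 with voom and 116 with the 8 libraries alone. Against NSG, 29 higher and 3 lower became 47 and 12 with voom, 13 and 1 with a pseudocount of 0.1, and higher became 5 with all genes above 0, 15 without a trend, 9 with median-ratio scaling, 16 with quantile scaling and 4 with the 8 libraries alone. For NSG versus WT 0 higher became 1 with voom and 2 with all genes above 0. The replicate block gave 5 higher and 0 lower against NSG and changed no call of a member.

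With each library left out, members with values near 0 changed sign: Lgals9 was at -0.089 to 0.017 against WT and -0.039 to 0.067 against NSG, Calr at -0.050 to 0.10 against NSG and -0.039 to 0.11 for NSG versus WT, and in that comparison Cd24a at -0.12 to 0.14 and Sirpa at -0.069 to 0.11. Sirpa against NSG was at 0.35 to 0.53 and 0 to 1 members were called there. Counts over all genes were 41 to 246 higher and 6 to 81 lower against WT, 4 to 76 higher and 0 to 15 lower against NSG, and 0 to 1 in each direction for NSG versus WT. The causes were not tested. Cd86 and Cd80 had the fewest reads of the members, 2 to 20 and 26 to 143 per library.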
